A study of Homo sapiens with 7 samples.

Results

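Rb, the retinoblastoma protein encoded by RB1, was called at few replication-dependent histone genes of ZR-75-1 cells. With palbociclib, 6 of the 70 genes (8.57%, 95% exact interval 3.21 to 17.7) had a promoter peak in both libraries. The 70 genes are all protein-coding GENCODE genes on chromosomes 1 to 22 named H1-1 to H1-6 or with an H2AC, H2BC, H3C or H4C number, out of 19111 protein-coding genes on those chromosomes. Their names and not any measured value decided membership, though the family was chosen with earlier results of these data known. The same call was made for 6788 of the 19111 genes, a background of 35.5% that lay above the interval of the members. The members called were H4C1, the divergent pair H2BC11 and H2AC11, H2AC16, H4C3 and H2BC18.

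Replication-dependent histone genes encode the core histones H2A, H2B, H3 and H4 and the linker histone H1 that package newly made DNA. They are switched on in S phase, lie in clusters as many small intronless copies, and end in a stem-loop in place of a poly(A) tail. Their transcription is started by NPAT, which cyclin E and CDK2 phosphorylate, together with promoter-specific factors such as HINFP at H4 genes and POU2F1 at H2B genes. In its hypophosphorylated form Rb holds E2F factors and represses genes of the G1/S transition.

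Rb was profiled by CUT&RUN, in which an antibody directs a nuclease to a chromatin protein and the released fragments are sequenced. ZR-75-1 is a breast cancer cell line that expresses the oestrogen receptor. Parental cells treated for 4 days with DMSO or with 500 nM palbociclib, a CDK4/6 inhibitor, gave 2 Rb libraries each. RB1 KO cells gave 1 Rb library with each treatment, and parental cells with palbociclib gave 1 library with a mouse IgG2a antibody. Per the study's methods, RB1 KO lines were made with Cas9 and expanded from sorted single cells, so the knockout is read from a clone, and parental replicates were biological replicates of 1 experiment. The deposited lists hold peaks, not expression, so neither the cell type nor the histone transcripts could be checked in them. On chromosomes 1 to 22 the lists held 911 and 742 Rb peaks with DMSO, 8085 and 7942 with palbociclib, 4 and 5 in RB1 KO cells and 1697 with IgG2a. A gene was counted as called when a peak overlapped the promoter window, which ran from 2000 bp before to 500 bp after any of its transcription start sites (TSSs).

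The sequences that carry the comparison are promoters with and without a called peak. The 250 bases before the TSS are shown for H2BC11 and H2AC16, which were called in both palbociclib libraries. Beside each stands a gene of the same class, H2BC12 or H2AC14, that was called in no library. The letters are from RefSeq on GRCh38.p14, 5′ to 3′ on the strand of each gene. Capitals mark, on either strand, the E2F letters TTTCGCGC, the CCAAT box, the TATA box (spelled TATAAA) and the octamer ATTTGCAT, the letters read by POU2F1.
H2BC11: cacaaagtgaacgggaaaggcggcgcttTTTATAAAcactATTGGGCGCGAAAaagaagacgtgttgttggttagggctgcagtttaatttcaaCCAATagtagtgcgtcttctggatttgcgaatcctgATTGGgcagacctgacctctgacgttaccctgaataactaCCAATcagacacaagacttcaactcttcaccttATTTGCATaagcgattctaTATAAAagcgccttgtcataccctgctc
H2BC12: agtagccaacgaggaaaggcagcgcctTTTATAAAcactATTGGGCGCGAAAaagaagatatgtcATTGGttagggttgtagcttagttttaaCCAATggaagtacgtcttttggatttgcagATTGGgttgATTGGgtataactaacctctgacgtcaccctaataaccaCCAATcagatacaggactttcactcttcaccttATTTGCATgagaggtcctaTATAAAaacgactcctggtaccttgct
H2AC16: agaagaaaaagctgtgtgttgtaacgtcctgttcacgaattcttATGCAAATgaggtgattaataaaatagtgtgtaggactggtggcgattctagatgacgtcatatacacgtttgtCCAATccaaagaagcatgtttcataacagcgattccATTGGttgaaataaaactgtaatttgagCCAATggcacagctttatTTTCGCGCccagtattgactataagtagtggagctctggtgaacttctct
H2AC14: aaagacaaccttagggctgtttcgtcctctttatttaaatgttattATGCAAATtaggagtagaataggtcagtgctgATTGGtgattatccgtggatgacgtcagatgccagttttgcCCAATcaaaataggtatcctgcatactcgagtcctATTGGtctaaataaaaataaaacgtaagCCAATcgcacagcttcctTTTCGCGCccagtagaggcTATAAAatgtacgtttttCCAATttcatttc
On GRCh38.p14 these stretches are chr6:27132796-27133045 on the minus strand for H2BC11, chr6:27146859-27147108 on the minus strand for H2BC12, chr6:27865067-27865316 on the plus strand for H2AC16 and chr6:27814778-27815027 on the minus strand for H2AC14. The H2BC11 stretch spans the whole gap to H2AC11, which is read in the other direction, and the first 3 bases of that gene. H2BC11 and H2BC12 were identical at 204 of 257 aligned positions (79.4%), and both carry 1 E2F match and 1 octamer. H2AC16 and H2AC14 were identical at 176 of 264 aligned positions (66.7%), and both carry an E2F match that begins 50 bases before the TSS. The called and the uncalled promoter of each pair thus held the same E2F letters.

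H4C1, which encodes the core histone H4 and had the highest fold enrichment of the family, lies at chr6:26021649-26022050 (hg38, ENSG00000278637.2, plus strand). Its fold enrichment, the authors' ratio of fragments at the peak summit to the local background, was 6.36 in DMSO replicate 1. With palbociclib it was 16.5 in replicate 1 and 20.7 in replicate 2. No peak was called there in DMSO replicate 2, in RB1 KO cells or with IgG2a. The palbociclib mean of 18.6 ± 2.94 (SD, n = 2) was 2.92 times the only DMSO value, a log2 ratio of 1.55. Of the genes called in each palbociclib library, 86.1% and 92.0% had a lower fold enrichment than H4C1. The pileup recovered from the deposited values was 9 fragments with DMSO and 24 and 31 with palbociclib. In DMSO replicate 2, a summit over the lowest background of the list needed 6 fragments, or a fold enrichment of 4.78, to be called. The absence of a call there sets a level below that limit only where the local background was at that floor.

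H2BC11 and H2AC11 encode an H2B and an H2A protein and start 248 bp apart in opposite directions. H2BC11 lies at chr6:27125897-27132795 (ENSG00000124635.9) and H2AC11 at chr6:27133043-27133535 (ENSG00000196787.4). A single peak over the gap between them served both genes in each library, so their values are the same measurement. Its fold enrichment was 5.73 in DMSO replicate 1, 12.5 in palbociclib replicate 1 and 9.68 in palbociclib replicate 2. Both palbociclib values lay above the DMSO value, and DMSO replicate 2 had no call. The palbociclib mean was 11.1 ± 2.01 (SD, n = 2), or 1.94 times the DMSO value (log2 ratio 0.95). The pileup was 8 fragments with DMSO and 18 and 14 with palbociclib.

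H2AC16, an H2A gene at chr6:27865317-27865798 (ENSG00000276903.2), was called only with palbociclib, at a fold enrichment of 8.58 and 6.46. H4C3, an H4 gene at chr6:26103933-26104337 (ENSG00000197061.5), was called only with palbociclib, at 5.28 and 5.16. H2BC18, an H2B gene annotated at chr1:149782689-149812373 (ENSG00000203814.7), was likewise called only with palbociclib, at 4.48 and 3.9. Their means were 7.52 ± 1.5, 5.22 ± 0.0805 and 4.19 ± 0.412 (SD, n = 2 each). These 3 members met the definition of a gained promoter, called in both palbociclib libraries and in neither DMSO library. They were 4.29% of the 70, against a background of 28.8% of all genes. At the median background of DMSO peaks within 1 Mb of the H2BC18 cluster, a call needed a fold enrichment of 4.19 and 4.27. A DMSO signal as low as the palbociclib value of 3.9 at H2BC18 could thus have gone uncalled. With a common cutoff of 5.33 in −log10 p, 2 members were gained, against 26.8% of all genes. The order H4C1, H2BC11/H2AC11, H2AC16, H4C3, H2BC18 held without overlap of the replicate values between neighbours. With 2 libraries a gene, an exact permutation test cannot go below p = 0.333. The last 2 places rest on the background: H2BC18 had pileups of 10 and 9 fragments over backgrounds of 1.45 and 1.56, and H4C3 had 7 and 7 over 0.516 and 0.549.

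**Figure D1:**
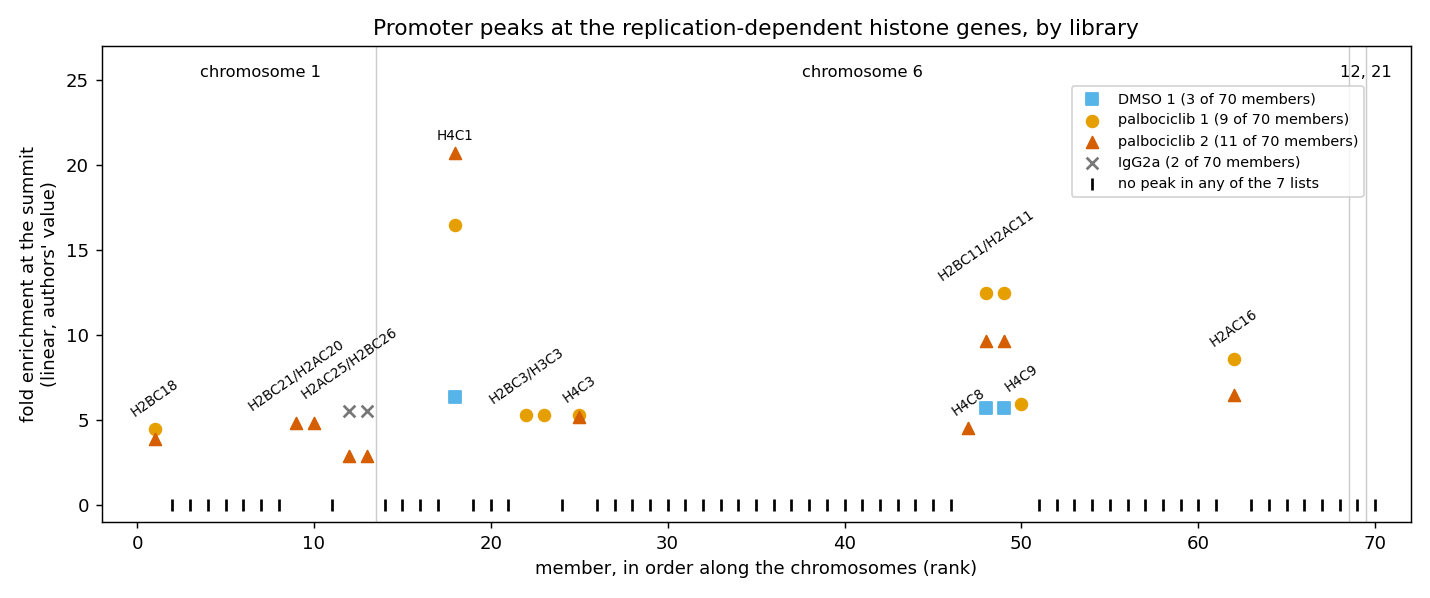
Fold enrichment at the summit (vertical axis, linear, the authors' value) of the strongest promoter peak of each of the 70 members, in order along the chromosomes, with 1 symbol per library and a tick for members called in none of the 7 lists. H4C1 stands highest at 16.5 and 20.7 with palbociclib, DMSO replicate 1 gives the 3 DMSO values, and DMSO replicate 2 and both RB1 KO lists give none.

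Set against the height of all palbociclib peaks, the members called in both libraries lay on both sides of the median, and which median was higher depended on how shared peaks were counted. Their mean fold enrichment had a median of 9.31 (range 4.19 to 18.6, n = 6), and all 6788 genes called in both libraries had a median of 8.39 (range 2.55 to 71.0). With each shared peak counted once, the medians were 7.52 (n = 5) and 8.21 (n = 5663). H4C1 and the H2BC11/H2AC11 pair were above that median, and H2AC16, H4C3 and H2BC18 below it. Their height depends on the background too. The H4C1 and H2BC11/H2AC11 peaks stood over backgrounds of 0.516 to 0.55, against list medians of 1.45 and 1.56. In fragments, the H2BC11/H2AC11 pileups of 18 and 14 lay on both sides of the median of 17 over the peaks of each palbociclib list. Those of H4C1, 24 and 31, lay above it.

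**Figure D2:**
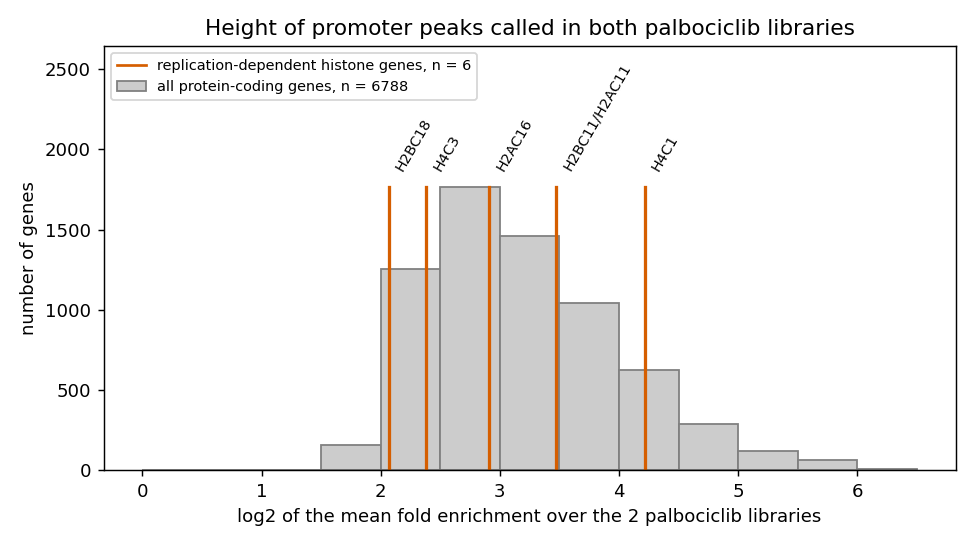
Number of genes (vertical axis) by log2 of the mean fold enrichment over the 2 palbociclib libraries, for the 6788 protein-coding genes called in both, with a vertical line for each of the 6 members, of which H2BC11 and H2AC11 share 1. The members run from 4.19 (H2BC18) to 18.6 (H4C1) on the linear scale, within the body of the distribution.

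Palbociclib was compared with DMSO to ask where Rb sits once CDK4/6 is inhibited. In DMSO replicate 1, 3 members were called (background 5.39% of all genes), and in DMSO replicate 2 none was (4.39%). In palbociclib replicate 1, 9 members were called (40.3%), and in palbociclib replicate 2, 11 (39.6%). Every palbociclib library thus called more members than either DMSO library, and an exact permutation test of 2 libraries against 2 cannot go below p = 0.333. Both DMSO libraries called 0 of 70 members, which allows a share of up to 4.29%, and 3.01% of all genes. In RB1 KO cells, 0 of 70 members were called with DMSO and 0 of 70 with palbociclib, against 0.00523% of all genes (1 gene) in each list. At the lowest background of the RB1 KO lists a call needed 10 fragments with DMSO and 6 with palbociclib, against 5 in both parental palbociclib lists. The weaker member peaks, such as the parental DMSO peaks of 8 and 9 fragments, could thus have gone uncalled there. The IgG2a list called 2 members, against 2.01% of all genes.

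A further 8 members were called in 1 palbociclib library only, for which the background was 8.91% of all genes. H2BC3 (H2B) and H3C3 (H3) shared a peak of 5.28 in replicate 1, and H4C9 (H4) had one of 5.94 in the same replicate. In replicate 2, H4C8 (H4) was called at 4.52, and the divergent H2B and H2A genes H2BC21 and H2AC20 shared a peak of 4.86. H2AC25 and H2BC26, a divergent pair, shared a peak of 2.9 in replicate 2. Of the members called in any palbociclib library, 8 of 14 (57.1%) were called in 1 only, and of all genes 1702 of 8490 (20%). Genes that share a peak are counted separately in both shares, so these counts are not independent. The peaks at these 8 members had pileups of 6 to 17 fragments, and the needed number at the floor background was 5 in both palbociclib lists.

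H2AC25 and H2BC26 on the distal long arm of chromosome 1 were the only members in the IgG2a list, with a shared peak of 5.54. That peak lay 579 bp upstream of H2AC25 and 349 bp inside H2BC26, while the Rb summit of 2.9 lay 137 bp inside H2AC25, so the 2 peaks did not share a position. The Rb peak stood over a background of 5.21, with 0.0792% of the genes called in that library lower in fold enrichment. The local background at peaks within 1 Mb of this pair was 2.33 times the list median in both palbociclib lists. Whether that background set the call was not tested.

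The remaining 56 members had no palbociclib peak. They were H1-1 to H1-6, all of the linker histone genes; H2AC1, H2AC4, H2AC6, H2AC7, H2AC8, H2AC12, H2AC13, H2AC14, H2AC15, H2AC17, H2AC18, H2AC19 and H2AC21 of the H2A genes; and H2BC1, H2BC4, H2BC5, H2BC6, H2BC7, H2BC8, H2BC9, H2BC10, H2BC12, H2BC12L, H2BC13, H2BC14, H2BC15 and H2BC17 of the H2B genes. Among H3 genes they were H3C1, H3C2, H3C4, H3C6, H3C7, H3C8, H3C10, H3C11, H3C12, H3C13, H3C14 and H3C15. Among H4 genes they were H4C2, H4C4, H4C5, H4C6, H4C7, H4C11, H4C12, H4C13, H4C14, H4C15 and H4C16. None of the 56 was called in any other list. Their median distance to the nearest palbociclib summit shared by both libraries was 39.7 kb (range 1.16 to 295), and that of all 10621 genes with no palbociclib peak was 120.5 kb. Over all 70 members the median was 29.3 kb, and over all 19111 genes 40.7 kb. Members lie close together, so these distances share summits.

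By class, both palbociclib libraries called 2 of 15 H4 genes (13.3%, 95% exact interval 1.66 to 40.5), 2 of 17 H2A genes (11.8%, 1.46 to 36.4) and 2 of 19 H2B genes (10.5%, 1.3 to 33.1). They called 0 of 13 H3 genes (exact interval up to 24.7%) and 0 of 6 H1 genes (up to 45.9%). Taken as 3 counts, the limits that a count of 0 allows are 23.1% and 50%. The exact intervals of the 5 classes overlapped one another. Those of H2B and H3 lay below the background of 35.5%, and those of H1, H2A and H4 included it. All intervals cover counting error only, and members that share a peak are not independent.

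The main cluster on chromosome 6 holds 55 members from H2AC1 to H2BC17 (chr6:25723397-27893891). Of these, 5 were called in both palbociclib libraries (9.09%, 3.02 to 20) and 4 in 1 only. They fell into 3 stretches: 2 of 34 members from H2AC1 to H4C8, 2 of 5 from H2BC11 to H2AC12, and 1 of 16 from H2BC13 to H2BC17. Chromosome 1 holds 13 members, of which 1 was called in both (7.69%, 0.195 to 36.0) and 4 in 1. Of those 13, 11 lie from H2BC18 to H2AC21 (chr1:149782689-149887965) and 2 are H2AC25 and H2BC26. H4C16 on chromosome 12 (chr12:14767999-14771131) and H2BC12L on chromosome 21 (chr21:43565182-43565648) were called in no library. The intervals of chromosome 6 and chromosome 1 overlapped, and the chromosome 1 count rested on single libraries. Called from palbociclib replicate 2 alone, 5 of 13 chromosome 1 members and 6 of 55 chromosome 6 members had a peak, and from replicate 1 alone 1 and 8. Of all genes, 39.6% were called in replicate 2 and 40.3% in replicate 1. The chromosome 1 interval included the both-library background of 35.5%, and the chromosome 6 interval lay below it. The chromosome 1 count was 0 with −log10 q or a fold enrichment of at least 5.

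Few of the genes that are not histones but lie inside the same clusters were called. Both palbociclib libraries called 2 of 21 of them (9.52%, 1.17 to 30.4): PRSS16, a protease gene, at 5.59 and 6.16, and ZNF184, a zinc finger gene, at 9.9 and 9.68. That interval overlapped the interval of the members (3.21 to 17.7), and the difference was not tested. The count was 1 with canonical TSSs alone or with −log10 q of at least 5. The median background at peaks within 1 Mb of the chromosome 6 cluster was 0.355 and 0.352 of the list median with palbociclib. At that background a summit needed 5 fragments, or a fold enrichment of 3.96 and 3.87, to be called. Whether copy number, mappability or chromatin state of the region set the share was not tested.

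**Figure D3:**
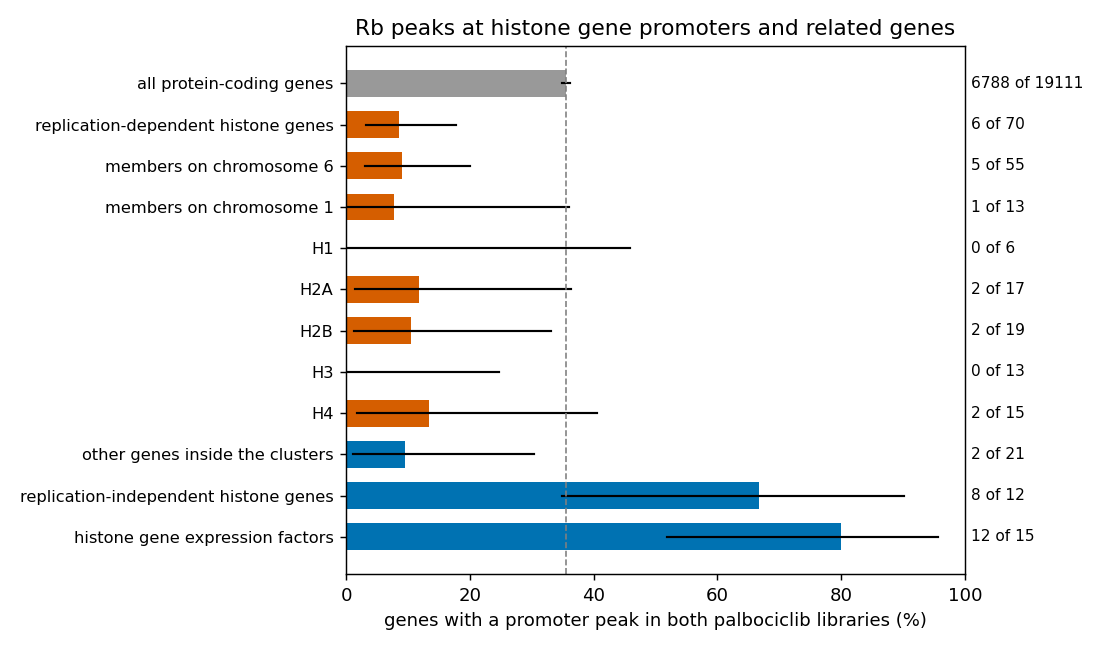
Percent of genes with a promoter peak in both palbociclib libraries (horizontal axis) for all protein-coding genes, the members, their chromosomes and classes, and 3 related gene groups, with counts at the right and 95% exact binomial intervals as lines. The members stand at 8.57% and the other genes inside the clusters at 9.52%, below the dashed background of 35.5%, with the replication-independent histone genes at 66.7% and the histone gene expression factors at 80%.

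Genes that drive or process histone transcripts were called in a larger share than the histone genes. This list was chosen with earlier results of these data known, so the contrast is a description and was not tested. Of 15 such factors, 12 (80%, 51.9 to 95.7) were called in both palbociclib libraries, against 35.5% of all genes. SLBP, which binds the stem-loop of histone mRNA, was enriched 12.1-fold and 7.46-fold in the DMSO libraries and 42.9-fold and 40.5-fold in the palbociclib libraries. CASP8AP2, a factor of histone locus bodies, had 9.55 and 9.22 in the DMSO libraries and 25.7 and 21.3 in the palbociclib libraries. CCNE2, a cyclin E gene, had 23.3 and 14.1 in the DMSO libraries and 51.8 and 57.0 in the palbociclib libraries. In these 3 genes, the factors called in both DMSO libraries, every palbociclib value lay above every DMSO value. The exact permutation test gave its smallest possible p of 0.333 for each. Over all protein-coding genes, 575 were called in both DMSO and both palbociclib libraries, with a median log2 ratio of 1.87. In all 575 the DMSO and palbociclib values did not overlap, so this separation was not particular to the 3 factors. LSM11, a subunit of the U7 ribonucleoprotein that cleaves histone transcripts, was called in no library. NPAT, named here after its values were seen, had 7.93 in DMSO replicate 1 and 25.4 and 28.6 with palbociclib.

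The replication-independent histone genes, which are expressed outside S phase too, were also called in a larger share than the members. This list too was chosen with earlier results of these data known, and the difference was not tested. Both palbociclib libraries called 8 of 12 (66.7%, 34.9 to 90.1). That interval included the background of 35.5% of all genes. H2AZ2, which encodes the variant H2A.Z.2, was enriched 15.9-fold in each DMSO library, and 50-fold and 47.1-fold in the palbociclib libraries. MACROH2A2, a macroH2A gene, and H3-5, an H3.3-type gene, were called in no library. The 8 called genes lie outside the histone clusters, so gene type and genomic region cannot be told apart in this contrast.

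Peak positions fell into separate kinds. At H4C1 the summit lay 4 bp upstream of the TSS with DMSO and 39 and 62 bp upstream with palbociclib. At the H2BC11/H2AC11 pair it lay 127 bp upstream of H2BC11 with DMSO and 82 and 100 bp upstream with palbociclib, between both starts. Only the strongest peak of each gene in each library was placed, and all others of these had their summit inside a histone gene. Palbociclib replicate 2 held 4 peaks at member promoters from H2BC18 to H2AC21, and only those at H2BC18 and H2BC21/H2AC20 were placed. At H2AC16 it lay 141 and 85 bp downstream of the TSS, at H4C3 158 and 247 bp, and at H2BC18 228 and 232 bp. The single-library summits lay 118 bp (H3C3), 226 bp (H4C9), 97 bp (H4C8), 208 bp (H2BC21) and 137 bp (H2AC25) downstream. The 3 members called with DMSO were thus those whose strongest peak had its summit outside any histone gene.

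**Figure D4:**
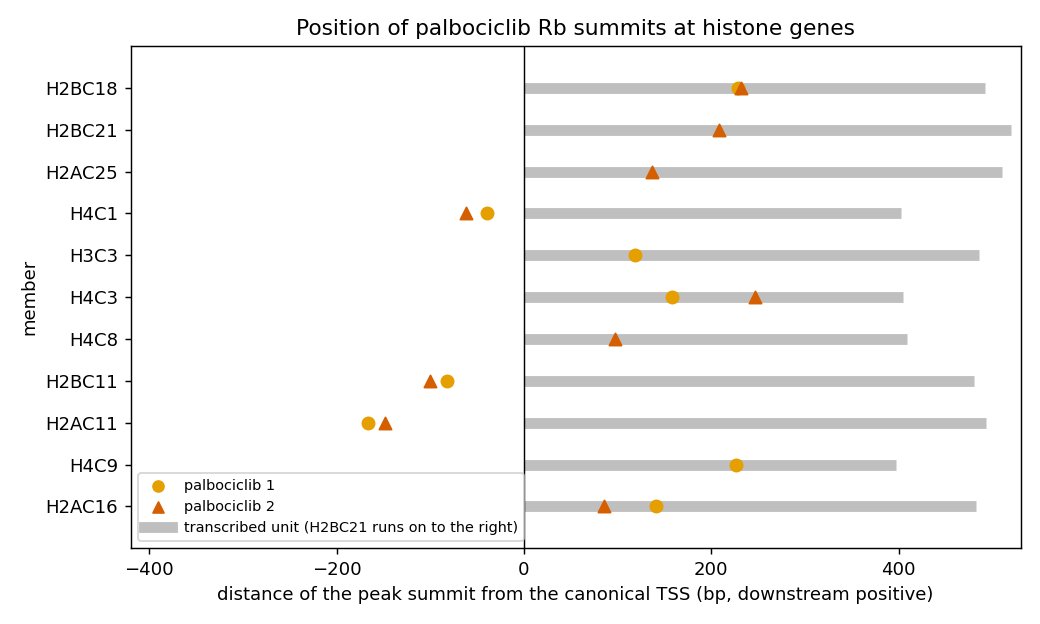
Distance of the summit of the strongest palbociclib peak in each library from the canonical TSS (horizontal axis, bp, downstream positive) for 11 members. Circles mark replicate 1, triangles replicate 2 and grey bars the transcribed unit, cut at the right for H2BC21. H2BC3, H2AC20 and H2BC26, whose summit lies inside a neighbouring member, are left out. The summits of H4C1, H2BC11 and H2AC11 lie left of the TSS and all others inside the gene.

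Promoter letters were compared over 250 bases before to 50 after the TSS, on both strands and with overlapping matches counted. RefSeq entries matched 64 of the 70 members, and H4C1, H4C3, H2AC12, H2BC12L, H3C11 and H3C12 had none. The E2F letters searched were TTTGGCGC, TTTCCCGC, TTTCGCGC and TTTGCCGC, and the others were the CCAAT box, the TATA box TATAAA, the octamer ATTTGCAT and the GC box, which is spelled GGGCGG. E2F letters were in 25% of member promoters and in 4.48% of all 15101 protein-coding promoters. The CCAAT box was in 84.4% against 36.0%, the TATA box in 65.6% against 9.71% and the octamer in 40.6% against 1.69%. The GC box was in 28.1% against 58.9%, and median GC content was 43.2% against 63.0%. By class, the octamer was in 77.8% of H2B, 68.8% of H2A, 9.09% of H3 and 0.0% of H4 and H1 promoters, the H3 match being in H3C4, whose RefSeq entry has the same motif positions as that of H2AC7.

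All 4 members called in both palbociclib libraries that had an entry (H2BC11, H2AC11, H2AC16 and H2BC18) held an E2F match and an octamer. H2BC11 and H2AC11 share the stretch between them, and so the same E2F match and octamer. None of those E2F matches lay whole within 100 bases of a palbociclib summit, though the wide replicate 2 peak at the H2BC11/H2AC11 pair covered its match. In the 201 bases of hg38 centred on the summit, H2BC11, H2AC11 and H2BC18 held 0 E2F matches in either palbociclib library. H2AC16 held 1, inside the gene and apart from its promoter match. Among members called in 1 library only, the peak shared by H2BC3 and H3C3 held 2, and the other peaks held 0. H4C1 and H4C3 were left out of this summit search. E2F letters were also in 1 of 8 members called in 1 library (12.5%) and in 11 of 52 members with no palbociclib peak (21.2%). The octamer was in 3 of those 8 (37.5%) and in 19 of those 52 (36.5%). The 16 members with E2F letters share 12 distinct matches, since divergent pairs share one. Of these matches, 3 lay at promoters called in both palbociclib libraries, 1 at a promoter called in 1 library (H4C9) and 8 at promoters with no palbociclib peak. In H2AC11, H2AC13, H2AC14, H2AC16 and H2AC17 the match began at the same place, 50 bases before the TSS, and H2AC11 and H2AC16 were the only called genes among these. H2BC18 held its match 36 bases after the TSS. A match is a description of letters and shows no bound factor.

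Most H2A and H2B members are arranged like the sequences shown for H2BC11. Of the 70 members, 24 form 12 divergent H2A/H2B pairs with TSSs 194 to 251 bp apart. Both palbociclib libraries called 2 of these 24 (8.33%, 1.03 to 27) and 4 of the other 46 (8.7%, 2.42 to 20.8). The 2 share 1 peak, and with overlapping promoter windows merged the counts were 1 of 12 sites and 4 of 35. The wide intervals overlapped, and the difference was not tested. H2BC12 and H2AC12, the pair next to H2BC11 and H2AC11, had no peak in any list.

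Some members cannot be read separately because their promoters have copies. H2AC18 and H2AC19, H3C14 and H3C15, and H4C14 and H4C15 are pairs with identical sequence (100%) over the 500 bp before and the 100 bp after the TSS. H2BC18, H3C13 and H2BC12L have a copy of at least 95% identity outside the family, so the chromosome 1 call at H2BC18 is uncertain. Of the 9 members with such copies, H2BC18 was the only one called. In 34 members the first 500 bp of the gene matched another place at 90% identity or more, among them H2AC16, H2BC18, H2BC21 and H4C9, whose summits lie inside the gene. H4C1, H4C3, H3C3 and H4C8 had no such match. No mapping-quality filter is given in the sources used here.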

How the data were processed

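Rb CUT&RUN peak lists of 7 ZR-75-1 libraries were used. Per the study's methods, reads were trimmed with BBDuk and aligned to hg38 with Bowtie2 2.3.4.1, blacklisted and mitochondrial reads were removed and duplicates were kept. The authors called peaks in each library with MACS2 2.2.7.1 (paired-end mode, matched IgG control, q-value cutoff 0.05), and the control of the IgG2a list is not given in the sources used here. The deposited fold enrichment is the authors' ratio of pileup plus 1 to background plus 1 at the summit, and the deposited −log10 p and −log10 q were used as filters. Pileup and background were recovered from fold enrichment and −log10 p, and this step was tested on simulated data. TSSs came from GENCODE 44, copies from blastn 2.17.0 (at least 95% identity over 80% of the promoter). Computation used Python 3.11.15, scipy 1.17.1 and Biopython 1.88. The lists hold no read totals, so depth was seen only through the floor background, 0.465 to 0.571 in the parental Rb lists. All protein-coding genes of chromosomes 1 to 22 were called in the same way, and no test was run over genes. Values in every library are given for called members, with every uncalled member listed by name. The members and gene lists were chosen with earlier results of these data known. CSTF2, 1 more listed factor, is not on chromosomes 1 to 22. Alternatives covered the promoter window, TSS choice, summit rule, thresholds, list length, merged sites, promoter copies and each parental library. The values of 1 listed replication-independent histone gene are not reported here.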

Additional observations from a re-analysis of the deposited data

How the results depend on the processing

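Across 14 alternatives the number of members called in both palbociclib libraries ranged from 0 to 11, and the share of all genes from 3.97% to 40.3%. Windows of 1000 bp upstream to 100 bp downstream, canonical TSSs alone and summits inside the window called the same 6 members. With only the best 816 peaks of every parental list, 0 members were called in both palbociclib libraries (0 on chromosome 6, 0 on chromosome 1) and 0 were gained, against 3.97% and 0.753% of all genes. The histone gene factors then fell to 5, the replication-independent histones to 1 and the other genes in the clusters to 0. The chromosome 1 count became 0 with −log10 q of at least 5, with a fold enrichment of at least 5, with a common cutoff of 5.33 in −log10 p, and without the 9 members that have promoter copies; the last 2 alternatives, and all those for the other gene groups, were chosen after seeing the data. Other genes in the clusters fell to 1 with canonical TSSs and to 1 with −log10 q of at least 5.

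Leaving out each parental library in turn gave 6 to 11 members called with palbociclib, 5 to 8 on chromosome 6 and 1 to 5 on chromosome 1, the highest values coming without palbociclib replicate 1 (11 and 5) and without palbociclib replicate 2 (8). The background for these palbociclib calls was 35.5% to 40.3% of all genes. Without DMSO replicate 2, 3 members were called with DMSO, against 5.39% of all genes. Over all libraries left out the DMSO count ranged from 0 to 3. Gained members numbered 3 to 8, with 6 without DMSO replicate 1, 8 without palbociclib replicate 1 and 6 without palbociclib replicate 2. The share of all genes was 31.1%, 32.9% and 33.5% in the same order. The cause of these shifts was not tested beyond the smaller number of libraries a call then needs. No member was called in all 4 parental lists, so the planned median ratio over such members and its alternatives gave no value. Over all 575 genes called in those 4 lists the median log2 ratio was 1.87. No paired analysis was possible because the counts come from no test and no member had a fold enrichment in DMSO replicate 2. By replicate number, the members called were 3 with DMSO and 9 with palbociclib in replicate 1, and 0 and 11 in replicate 2.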

Other observations

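Within the span of the chromosome 6 cluster, palbociclib replicate 1 held 10 peaks and replicate 2 held 12. Of these, 6 and 5 lay at member promoters, 2 and 2 at promoters of other protein-coding genes and 2 and 5 elsewhere. DMSO replicate 1 held 2 peaks in the span, both at member promoters, and DMSO replicate 2, both RB1 KO lists and the IgG2a list held 0. In the cluster from H2BC18 to H2AC21 on chromosome 1, palbociclib replicate 1 held 1 peak and replicate 2 held 4, all at member promoters.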
